A study of Mus musculus with 6 samples.

Results

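Cerebellins, neurexins and neuroligins are the secreted and membrane proteins that join the sending and the receiving side of a synapse. Of 15703 genes listed in neocortex of newborn mice, 8 with the symbols Cbln1, Cbln2, Cbln4, Nrxn2, Nrxn3, Nlgn1, Nlgn2 and Nlgn3 are described here. They were chosen by name, with earlier results of these data known. The libraries came from C57BL/6 mice at postnatal day 0. Of these, 3 were labelled WT and 3 were conditional knockouts (cKO) with the genotype Tcf4 f/f; Emx1Cre/+, in which Cre from the Emx1 locus acts on floxed Tcf4 in the lineage of cortical excitatory neurons and glia, and spares interneurons and vessels, which enter from elsewhere. The labels do not say whether WT animals carried floxed alleles or Cre. Whole tissue was sequenced, so fewer cells of a type and less RNA per cell cannot be told apart. The study asked how expression changes once Tcf4, a basic helix-loop-helix transcription factor, is lost.

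Neurexins sit on the axon terminal and neuroligins on the dendrite, and the binding of one to the other helps to assemble the terminal and the receptor cluster opposite. Cerebellins are small secreted proteins with a C1q domain. They bind neurexins and, on the other side, delta glutamate receptors such as Grid1, and so bridge the cleft. Neuroligin-1 is typical of excitatory synapses, neuroligin-2 of inhibitory ones, and neuroligin-3 is found at both.

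Values are FPKM, the number of fragments a gene received per kilobase of its exons, adjusted for library size, so that levels can be compared between genes. A gene was called when limma's adjusted p, over all 15703 genes, was under 0.05 on log2(FPKM + 1). The library sizes at which low values came out as whole reads were 23.2 to 26.0 M (M, mega). Reads recovered from the FPKM with these sizes summed to 25.3 to 28.7 M over the listed genes. In every library that sum exceeded the fitted size, so the recovered reads are approximate. Tcf4 itself ranged from 71.2 to 75.6 FPKM over the WT libraries and from 55.3 to 60.6 FPKM over the cKO libraries, and was called lower (limma adjusted p = 0.00411). The value covers all its exons and all cells, and not the floxed exon alone. Xist RNA was at 127 to 158 FPKM in WT 2, WT 3, cKO 1 and cKO 2 and at 0.433 and 0.407 FPKM in WT 1 and cKO 3, so each group held 1 library without it. Emx1, a marker of dorsal forebrain and the gene that drives Cre here, was found in every library, at 11.6 to 13.01 FPKM in WT and 9.36 to 10.5 FPKM in cKO (called lower, limma adjusted p = 0.0175).

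All 3 cerebellins fell in the cKO neocortex, and the neuroligins did not pass the test. Of the 8 genes, 4 were called lower (Cbln1, Cbln2, Cbln4 and Nrxn3), none was called higher and 4 were not called. Among all listed genes 8.59% were called lower and 7.22% higher. At an unadjusted p under 0.05, 4 were lower and 0 higher, and voom on recovered reads also called 0 higher. In 5 of the 8 genes every cKO library lay below every WT library, against 18.7% of all genes, and in 1 (Nrxn2) every cKO library lay above, against 18.5%. Without cKO 2 only Cbln1 and Cbln4 were called, so the count of 4 became 2; with any other single library left out it was 3. The median log2 change of the 8 was −0.18, beside 0.0017 for all genes. Since the 8 were chosen with earlier results known, these counts and medians describe them and do not test for an excess.

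**Figure D1:**
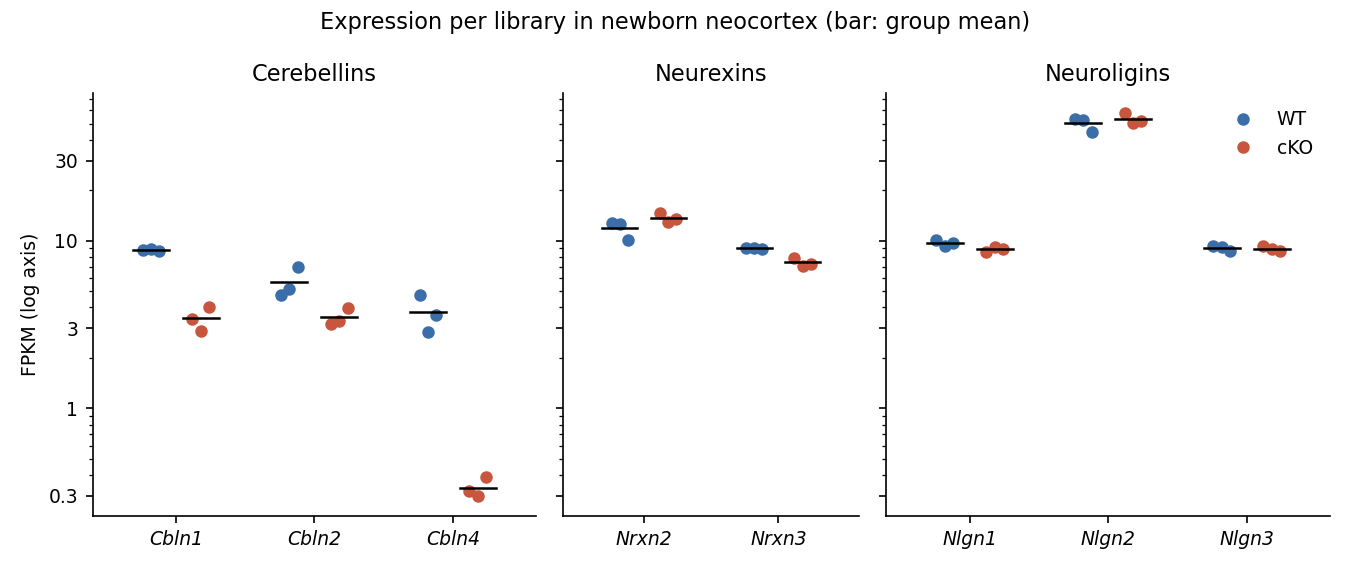
FPKM on a log axis for each gene, with 1 point per library and a bar at the mean of the 3 WT or 3 cKO libraries. The cKO points of Cbln4 lie at 0.298 to 0.387 FPKM, below WT points of 2.86 to 4.76 FPKM, while those of Nlgn2 and Nlgn3 overlap between the groups.

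Cbln4 changed most among the 8. It encodes cerebellin 4, which binds neurexins and also the receptors DCC and neogenin, and in older cortex somatostatin interneurons use it to place synapses on dendrites. The gene (ENSMUSG00000067578) spans 7.23 kb on the minus strand of chromosome 2, 172036233 to 172043466 (mm10), and its exons are shared with no other gene. WT 1, 2 and 3 held 4.76, 2.86 and 3.62 FPKM, against 0.320, 0.298 and 0.387 FPKM for cKO 1, 2 and 3. The groups were far apart, and the spread was wide in WT and narrow in cKO. From a WT mean of 3.75 ± 0.958 FPKM (SD, n = 3) it fell 11.2-fold to 0.335 ± 0.0464 FPKM, and the log2 change was −1.81 (SE 0.132, limma adjusted p = 2.51e-05). That log2 change understates the fall of a gene this low. With a pseudocount of 0.1 it was −3.12, and voom on recovered reads gave −3.45. About 195 to 360 reads per library stood behind the WT values and 21 to 26 behind the cKO values.

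Promoter windows of 250 bases before a start site were taken from RefSeq (GRCm38.p6) and searched for the E-box CANNTG, the motif class that helix-loop-helix factors such as Tcf4 bind. Of the 8 genes, 4 had a window (Cbln4, Nrxn3, Nlgn1 and Nlgn2), 7 windows in all. Shown are the window of Cbln4, the gene with the largest change, the innermost of 3 windows of Nrxn3, which was called lower and holds the most E-boxes, and that of Nlgn2, which was not called. Each is written 5′ to 3′ on the gene's strand and ends at the base before the start site. Capitals mark each CANNTG.

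Cbln4, chr2:172043467-172043716, minus strand: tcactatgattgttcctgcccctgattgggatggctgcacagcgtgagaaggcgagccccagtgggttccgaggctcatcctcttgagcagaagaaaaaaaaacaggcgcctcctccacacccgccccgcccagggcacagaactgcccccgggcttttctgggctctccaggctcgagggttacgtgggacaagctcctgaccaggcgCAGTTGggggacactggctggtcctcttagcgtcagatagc

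Nrxn3, chr12:89812233-89812482, plus strand: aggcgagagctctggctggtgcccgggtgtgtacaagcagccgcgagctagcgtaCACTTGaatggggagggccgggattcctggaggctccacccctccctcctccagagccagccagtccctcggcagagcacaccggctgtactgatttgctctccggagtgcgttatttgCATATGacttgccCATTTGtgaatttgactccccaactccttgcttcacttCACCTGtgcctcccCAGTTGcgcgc

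Nlgn2, chr11:69837785-69838034, minus strand: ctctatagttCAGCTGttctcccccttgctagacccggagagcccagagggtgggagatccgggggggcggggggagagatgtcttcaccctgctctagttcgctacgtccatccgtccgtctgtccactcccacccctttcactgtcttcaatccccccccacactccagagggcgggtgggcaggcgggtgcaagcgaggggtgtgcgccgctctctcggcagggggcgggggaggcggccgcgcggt

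The Cbln4 window held 1 E-box, CAGTTG, which begins 41 bases before the start. The Nlgn2 window also held 1, CAGCTG, at 240 bases. The Nrxn3 window lies 1090 kb inside the gene, in no annotated exon, and held 5: CACTTG at 195, CATATG at 76, CATTTG at 63, CACCTG at 25 and CAGTTG at 11 bases before that start. The other windows of Nrxn3 held 0 and 1 (CAGGTG), and those of Nlgn1 held 0. CANNTG reads the same on both strands and occurs in 66.2% of the 32851 windows of all genes, with a mean of 1.16 per window. Of its forms, CACCTG or its complement CAGGTG occurs in 17.2%, CAGCTG in 4271 windows, CATATG in 3.46% and CATCTG or CAGATG in 14.4%. A match describes the letters only, and binding was not measured.

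Cbln1 encodes the founding cerebellin, best known for holding parallel fibre synapses onto Purkinje cells of the cerebellum. The gene (ENSMUSG00000031654) lies on chromosome 8, 87468405 to 87472609, minus strand. The WT libraries held 8.80, 8.88 and 8.74 FPKM, and the cKO libraries 3.395, 2.91 and 4.02 FPKM. WT libraries were nearly equal and every cKO library was far below them. Cbln1 fell 2.56-fold, from 8.80 ± 0.0686 to 3.44 ± 0.555 FPKM (log2 change −1.15, SE 0.0943, limma adjusted p = 5.95e-05). Cbln1 and Cbln4 kept their calls without each library in turn, with adjusted p of up to 0.000896 and 0.000514.

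Cbln2 encodes the cerebellin most often reported in cortical excitatory neurons, and like Cbln1 it binds both neurexins and delta receptors. The gene (ENSMUSG00000024647) lies on chromosome 18, 86711110 to 86718283, plus strand, the chromosome that also carries Tcf4. In WT the libraries held 4.78, 5.14 and 7.003 FPKM, compared with 3.20, 3.31 and 3.98 FPKM after deletion of Tcf4. WT 3 stood above the other WT libraries, and the groups did not overlap. Cbln2 fell 1.61-fold, from 5.64 ± 1.195 to 3.50 ± 0.423 FPKM (log2 change −0.55, SE 0.125, limma adjusted p = 0.0159). Leaving out cKO 1 ended this call (adjusted p = 0.0696), as did leaving out cKO 2 (0.0554), where the log2 changes were −0.50 and −0.52.

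The 3 cerebellins together summed to 18.3, 16.9 and 19.4 FPKM in the WT libraries, against 6.91, 6.52 and 8.39 FPKM in the cKO libraries (18.2 ± 1.2504 and 7.28 ± 0.983 FPKM). Their mix differed between the groups as well. Cbln4 made up 17.0% to 26.0% of the sum in WT and 4.57% to 4.63% in cKO. Cbln2 made up 26.0% to 36.2% in WT and 46.3% to 50.8% in cKO. The share of Cbln1 overlapped, at 45.1% to 52.6% and 44.7% to 49.1%. The ratio of Cbln1 to Cbln2 was 1.248 to 1.84 in WT, whereas in cKO it was 0.879 to 1.06. These sums are descriptions and were not tested.

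**Figure D2:**
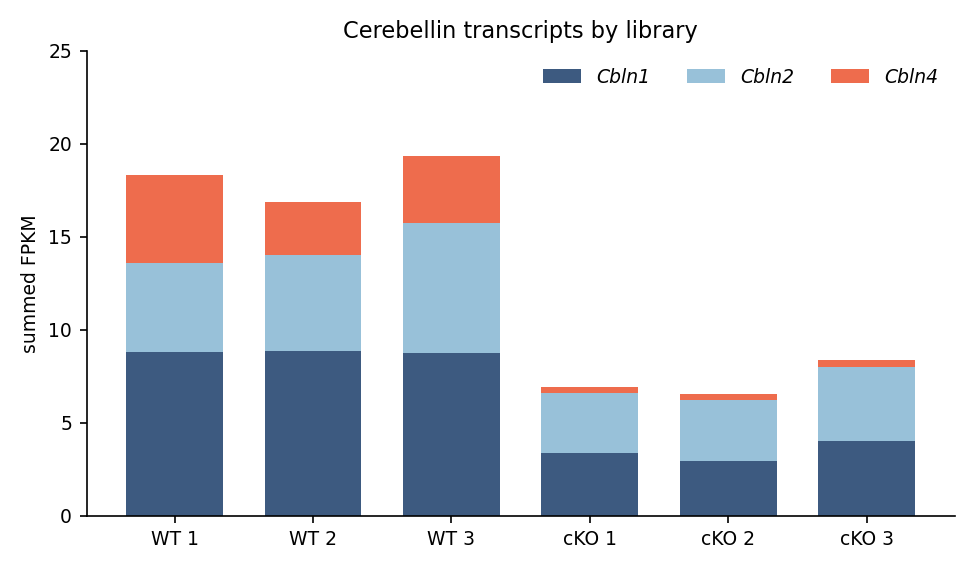
Stacked bars of FPKM of Cbln1, Cbln2 and Cbln4 in each of the 6 libraries. The WT bars reach 16.9 to 19.4 FPKM and the cKO bars 6.52 to 8.39 FPKM, and the Cbln4 segment is 4.57% to 4.63% of each cKO bar.

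Of the neurexins, Nrxn3 fell slightly and Nrxn2 did not pass the test. Nrxn3 (ENSMUSG00000066392, chromosome 12, 88722876 to 90334935, plus strand) spans 1612 kb, the longest of the 8 genes. The WT libraries held 9.01, 9.08 and 8.93 FPKM, and 7.94, 7.11 and 7.29 FPKM were measured in cKO, with no overlap. Nrxn3 fell by 17.3%, from 9.003 ± 0.0751 to 7.45 ± 0.432 FPKM (log2 change −0.25, SE 0.0686, limma adjusted p = 0.0379). The call was lost without WT 1 (adjusted p = 0.110), WT 2 (0.0552), WT 3 (0.0566), cKO 2 (0.151) or cKO 3 (0.101), and among the 4 libraries with Xist RNA (0.230), with log2 changes of −0.25 to −0.22. It held without cKO 1 (0.0479). Gm37980, on the opposite strand, covers 3.48% of its exon length.

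Nrxn2 (ENSMUSG00000033768, chromosome 19, 6418731 to 6544169, plus strand) had 12.8, 12.6 and 10.1 FPKM in the WT libraries, against 14.6, 12.97 and 13.4 FPKM for cKO. Every cKO library lay above every WT library, with cKO 2 just above WT 1 and WT 3 well below the rest. The means were 11.8 ± 1.5045 and 13.7 ± 0.851 FPKM, and the difference did not pass (log2 change 0.20, 95% interval −0.01 to 0.40, limma adjusted p = 0.1725). Without WT 3 the log2 change was 0.09, and with any other library left out up to 0.25. Gm14964 and Slc22a12, on the opposite strand, cover 6.44% of its exon length. The ratio of Nrxn2 to Nrxn3 was 1.42, 1.39 and 1.13 in WT and 1.84, 1.82 and 1.84 in cKO, with no test of it. Each neurexin gene makes long and short proteins from separate promoters and many splice forms, and one value per gene does not separate them.

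None of the 3 neuroligins was called. Nlgn2 (ENSMUSG00000051790, chromosome 11, 69823122 to 69837784, minus strand) stood at 53.0, 52.8 and 44.8 FPKM in the WT libraries, and at 58.1, 50.8 and 52.0 FPKM with Tcf4 deleted. The groups overlapped, with WT 3 lowest and cKO 1 highest (log2 change 0.09, 95% interval −0.09 to 0.28, limma adjusted p = 0.453), and without WT 3 the log2 change was 0.02. Nlgn1 (ENSMUSG00000063887, chromosome 3, 25426215 to 26332460, minus strand) had WT values of 10.1, 9.27 and 9.73 FPKM, and cKO values of 8.55, 9.23 and 8.89 FPKM. Its highest cKO library lay just under its lowest WT library (log2 change −0.11, 95% interval −0.26 to 0.04, limma adjusted p = 0.276). The antisense gene A830092H15Rik covers 9.16% of the exon length of Nlgn1.

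Nlgn3 (ENSMUSG00000031302, X chromosome, 101299168 to 101325963, plus strand) had WT values of 9.34, 9.16 and 8.66 FPKM, and cKO values of 9.33, 8.92 and 8.64 FPKM. The groups lay over each other (log2 change −0.01, 95% interval −0.16 to 0.14, limma adjusted p = 0.917). A further gene on the same strand, Gm21986, shares 41.2% of the exon length of Nlgn3, so how reads were assigned there bears on its level. Within the 4 libraries with Xist RNA its log2 change was 0.03 (limma adjusted p = 0.886). The 3 neuroligins summed to 72.4, 71.3 and 63.2 FPKM over WT libraries, against 76.0, 68.9 and 69.6 FPKM over cKO libraries, of which Nlgn2 was 70.9% to 74.1% and 73.7% to 76.5%. These intervals bound the changes that the 6 libraries allow and do not show that the levels were equal.

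**Figure D3:**
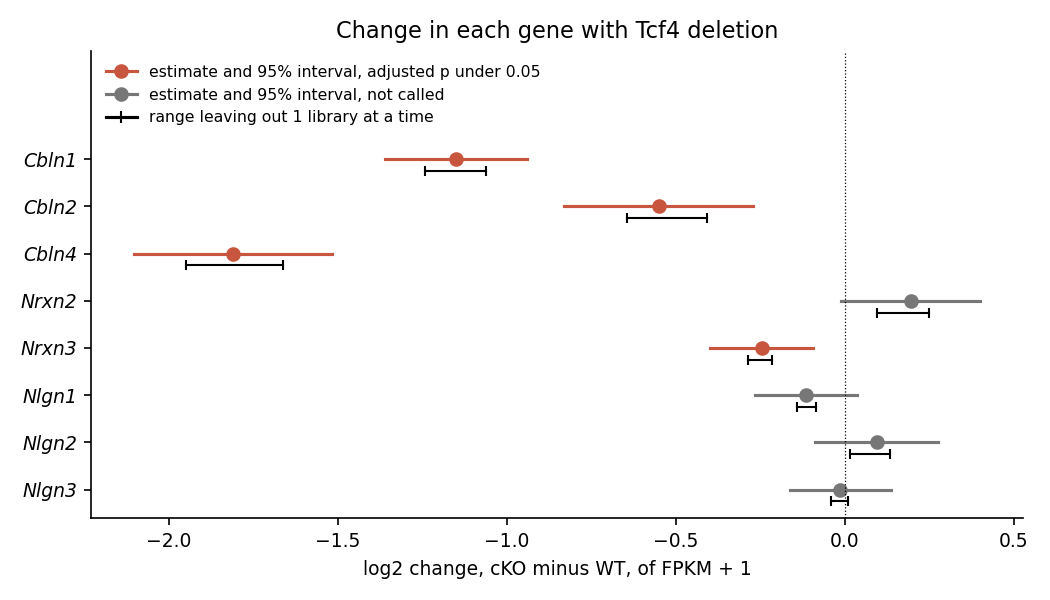
Log2 change (cKO minus WT, of FPKM + 1) of each gene as a point with its 95% interval from limma, in red where the adjusted p was under 0.05; the black line under it spans the values with 1 library left out at a time. The 3 cerebellins lie at −1.81 to −0.55, left of the neurexins and neuroligins at −0.25 to 0.20.

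By level in WT, Nlgn2 (50.2 ± 4.68 FPKM) stood far above the rest, higher than 94.6% of listed genes. Nrxn2 came next, and its lowest library (10.1 FPKM) met the highest of Nlgn1 (10.1 FPKM). Nlgn1, Nlgn3, Nrxn3 and Cbln1 followed within 9.70 to 8.80 FPKM. The libraries of Nlgn3 overlapped with those of each of the other 3, while the lowest Nrxn3 library (8.93 FPKM) lay just above the highest of Cbln1 (8.88 FPKM). Cbln2 and Cbln4 were lowest, and the highest WT library of Cbln4 (4.76 FPKM) was at the lowest of Cbln2 (4.78 FPKM). In cKO the order of the neurexins and neuroligins changed in that Nlgn3 (8.96 ± 0.348 FPKM) and Nlgn1 (8.89 ± 0.343 FPKM), which overlapped in both groups, exchanged places. Cbln1 (3.44 ± 0.555 FPKM) fell to the level of Cbln2 (3.50 ± 0.423 FPKM), and the libraries of these genes overlapped.

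The receptors that cerebellins bind did not pass the test. Of 4 measured, 0 were called in either direction by limma or by voom, and 0 had an unadjusted p under 0.05. The delta receptor Grid1 averaged 7.22 ± 1.34 FPKM for WT and 7.72 ± 0.348 FPKM for cKO. Neo1, which encodes neogenin, was at 53.7 ± 5.55 and 48.7 ± 1.47 FPKM, and Dcc at 5.94 ± 1.26 and 4.88 ± 0.880 FPKM. Among related C1q-like organisers and their receptor, 3 were measured (C1ql1, C1ql3 and Adgrb3) and 0 were called by limma or voom, with 1 higher and 1 lower at an unadjusted p under 0.05. C1ql1 averaged 1.67 ± 0.106 FPKM for WT, 1.36 ± 0.145 FPKM for cKO, and its receptor Adgrb3 8.62 ± 0.362 and 7.53 ± 0.341 FPKM.

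Proteins that bind the outer part of neurexins went both ways. Of 21 measured, 3 were called higher (Fam19a1, Nxph4 and Lrrtm1), 3 lower (Clstn2, Nxph3 and Fam19a2) and 15 were not called; their median log2 change was −0.07. The neurexophilins, secreted ligands of the long neurexins, diverged. Nxph3 went from a WT mean of 32.6 ± 2.71 down to 16.1 ± 2.46 FPKM (limma adjusted p = 0.000306). Nxph4, also a subplate marker here, went up from 6.16 ± 0.681 to 10.1 ± 0.998 FPKM (limma adjusted p = 0.00178). Nxph1 and Nxph2 were not called, though Nxph2 was called higher without WT 2 (0.0332). Clstn2, of the calsyntenin family, dropped from 41.7 ± 2.07 to 19.0 ± 1.79 FPKM (limma adjusted p = 2.12e-05), with no overlap between the groups, while Clstn1 (whose sign turned under quantile normalization) and Clstn3 were not called. Fam19a1, which encodes a secreted neurexin ligand, was raised from 4.18 ± 0.799 to 7.44 ± 0.590 FPKM (limma adjusted p = 0.0029), while Fam19a2 fell from 35.2 ± 0.955 to 27.6 ± 1.67 FPKM. Lrrtm1, a postsynaptic leucine-rich repeat ligand, rose from 18.4 ± 0.205 to 22.2 ± 1.42 FPKM, a call lost without WT 1, cKO 1 or cKO 3 (adjusted p of up to 0.0965). Among the 4 libraries with Xist RNA the calls of Lrrtm1 (0.233) and Fam19a2 (0.0675) were lost.

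On the side of the neuroligins, the MDGA genes encode membrane proteins that bind neuroligins and block neurexin. Mdga1, which blocks neuroligin-2, dropped from 19.2 ± 1.19 to 7.82 ± 0.718 FPKM (limma adjusted p = 1.35e-05); it is also among the upper-layer markers used here. Mdga2 rose from 4.44 ± 0.396 to 6.08 ± 0.355 FPKM (limma adjusted p = 0.0130). Gephyrin, Gphn, the scaffold that neuroligin-2 recruits at inhibitory synapses, held 19.6 FPKM in each WT library, against 16.3, 15.7 and 15.7 FPKM for cKO (limma adjusted p = 0.0104), a call lost without cKO 2 (0.0557) and among the 4 libraries with Xist RNA (0.126). The Mdga2 call was lost among those 4 as well (0.0958). Of 19 neuroligin partners and scaffolds, 2 were called higher (Mdga2 and Dlgap1), 3 lower (Mdga1, Gphn and Dlg1) and 14 were not called, with a median log2 change of 0.16. Without WT 2, 5 were called higher, and the Dlg1 call was lost without WT 1, cKO 1 or cKO 3 and among the Xist libraries (adjusted p of up to 0.143). Dlgap1, a scaffold of excitatory synapses, rose from 11.4 ± 0.812 to 15.4 ± 1.2516 FPKM.

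Within the terminal, 13 adaptors that bind neurexin tails or link them to release sites were measured, with 1 called higher (Caskin1) and 2 lower (Ppfia4 and Apba2). Each of these calls was lost when WT 1, cKO 2 or cKO 3 was left out, and at least 1 of them when any of the other libraries was; the Apba2 call also ended under quantile normalization (adjusted p = 0.141). Without trend and robust moderation the calls of Apba2 (0.0713) and Caskin1 (0.0566) ended, and among the 4 libraries with Xist RNA all 3 did (Apba2 0.32, Caskin1 0.129, Ppfia4 0.213). Of 11 factors that splice or cleave neurexins and neuroligins, 1 was called higher (Nova1, a splicing factor, 6.33 ± 0.662 to 8.16 ± 0.254 FPKM) and 0 lower, with 1 lower at an unadjusted p under 0.05 and 0 by voom. The Nova1 call was lost without WT 1, cKO 1, cKO 2 or cKO 3, with an adjusted p of up to 0.0884, and among the Xist libraries (0.166). Of 17 presynaptic vesicle and active zone genes, 2 were called lower (Snap25 and Stx1a) and 0 higher, with 1 higher at an unadjusted p under 0.05 and 0 by voom. Snap25, a membrane fusion protein, fell from 40.3 ± 0.182 to 29.0 ± 1.14 FPKM. The Stx1a call was lost without WT 1, cKO 2 or cKO 3 (adjusted p of up to 0.0989) and among the Xist libraries (0.143), and without WT 3 the list had 4 called lower. Of 28 other synaptic organisers, 3 were called higher and 5 lower. Slitrk3 was among those higher (8.30 ± 0.897 to 12.8 ± 0.547 FPKM, limma adjusted p = 0.00173). Cadm2 (32.99 ± 0.516 to 16.1 ± 0.383 FPKM) and Flrt3 (17.4 ± 3.08 to 9.89 ± 0.717 FPKM) were among those lower. The median log2 changes of the lists lay between −0.07 and 0.16, apart from the 3 C1q-like genes and receptor at −0.17. Beside the counts of these lists, 8.59% of all listed genes were called lower and 7.22% higher. No list was tested for an excess.

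**Figure D4:**
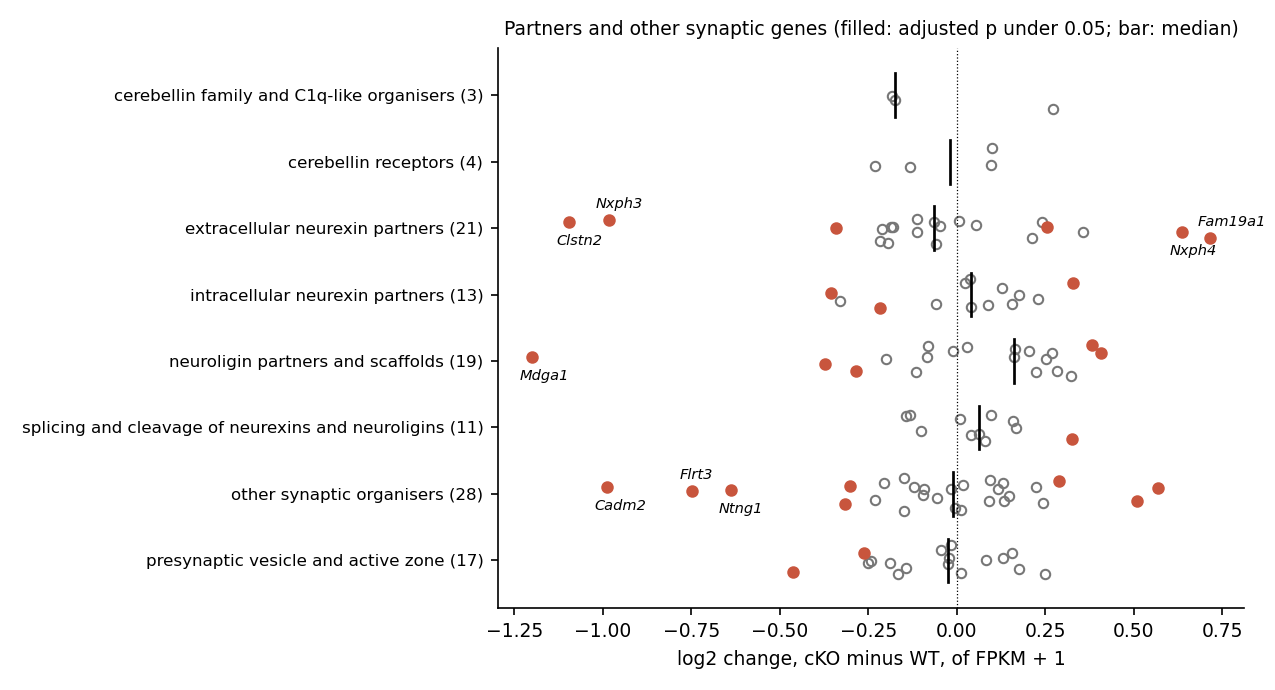
Log2 change (cKO minus WT, of FPKM + 1) of each gene in 8 lists, with the number measured in brackets, filled red where the adjusted p was under 0.05, and a bar at each list's median; genes that changed by over 0.6 are named. Clstn2, Nxph3, Mdga1 and Cadm2 lie near −1, Fam19a1 and Nxph4 above 0.6, and the 4 cerebellin receptors within −0.23 to 0.10.

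Genes with a profile most like each called gene were sought over the 6 libraries, among those with a mean of at least 1 FPKM, by the smallest root-mean-square difference of log2(FPKM + 1) after centring each gene. For Cbln1 the nearest were Olfml2b (difference 0.0836), the semaphorin receptor gene Plxnd1 (0.0862) and Sema7a, which encodes a membrane semaphorin (0.0943). Sema7a held 42.9, 43.5 and 44.0 FPKM in the WT libraries, against 19.6, 18.4 and 19.0 FPKM for cKO. For Cbln2 they were Dhrs7 (0.0624), the growth factor gene Ptn (0.0701) and Ppp1r1b (0.0708), and WT 3 was the highest library of all 3, as it was of Cbln2. For Cbln4 the nearest were farther off, with Tuba4a, an alpha-tubulin gene, at 0.148, the zinc finger gene Tshz2 at 0.165 and the matrix gene Fn1 at 0.178. Tuba4a, like Cbln4, was highest in WT 1 and lowest among WT in WT 2 (6.91, 4.59 and 5.95 FPKM in WT). For Nrxn3 the nearest were Agfg2 (0.0188) and Stx1a (0.0226), with log2 changes of −0.22 and −0.26; Agfg2 was not called. The likeness includes the difference between the groups and says nothing of shared control.

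Markers of several cell types differed between the groups beside the cerebellins. The counts below stand beside 8.59% of all listed genes called lower and 7.22% called higher, and no marker list was tested for an excess. Of 12 interneuron markers, 4 were called lower (1 without WT 1, cKO 1 or cKO 2, and 2 without WT 3), and their summed level was 219 to 245 FPKM over WT and 216 to 233 FPKM over cKO libraries. Npy, a neuropeptide gene that made up 33.2% to 49.2% of that sum, was not called (72.7, 87.5 and 108 FPKM in WT, and 102, 106 and 111 FPKM with Tcf4 deleted), though it was called higher under quantile normalization (adjusted p = 0.041) and without WT 3 (0.0123). The other 11 all had negative log2 changes. The sum without Npy was added after the data were seen, and Npy was the marker that went the other way. Without it the sums were 137 to 146 FPKM in WT and 110 to 122 FPKM in cKO, with no overlap, whereas the sums of all 12 overlapped. Sst, the somatostatin gene, fell from 30.3 ± 3.24 to 21.2 ± 4.34 FPKM (limma adjusted p = 0.0271), a call lost without WT 1, WT 3, cKO 1 or cKO 2 (adjusted p of up to 0.102). Of 10 upper-layer markers, 5 were called lower and 1 higher (376 to 413 against 363 to 367 FPKM), and of 10 deep-layer markers 4 were lower (291 to 310 against 241 to 253 FPKM). Of 10 markers of radial glia and astrocytes, 6 were lower (608 to 645 against 368 to 477 FPKM), and of 8 of microglia 4 were lower (1 without WT 1, 2 without WT 3 or cKO 1; 23.5 to 27.4 against 13.7 to 20.1 FPKM). Of 5 oligodendrocyte lineage markers, 2 were lower (Olig1 and Pdgfra; 1 without WT 1 or cKO 1), with sums of 56.5 to 64.3 against 41.2 to 50.5 FPKM. Of 5 Cajal-Retzius markers 1 was lower, and of 6 endothelial markers 0 were called by limma or voom, with 1 lower at an unadjusted p under 0.05; without WT 2, 2 were called higher. Of 7 subplate markers, 5 were higher and 2 lower, and their sums overlapped (73.3 to 83.9 against 64.4 to 77.2 FPKM). Of 5 intermediate progenitor markers 4 were higher (45.1 to 53.9 against 66.4 to 80.9 FPKM). All 3 measured olfactory bulb markers were called. Cdhr1 was lower (0.536 ± 0.0956 to 0.189 ± 0.0409 FPKM), as was Sp8 (2.74 ± 0.0262 to 1.801 ± 0.282 FPKM), whose call was lost without WT 1 or cKO 1. Eomes, also a marker of intermediate progenitors, was higher. Of 6 hippocampal markers (21.4 to 24.1 against 21.3 to 27.0 FPKM) 0 were called by limma and 1 higher by voom, with 2 higher and 1 lower at an unadjusted p under 0.05. Other neighbouring regions were covered as well. Among 7 thalamic markers (16.0 to 17.1 against 13.3 to 15.7 FPKM) only Foxp2 was called lower. It is also counted among the deep-layer markers, and its call ended on leaving out WT 1, cKO 1 or cKO 2. The 7 striatal markers (31.2 to 35.6 against 28.8 to 31.7 FPKM) had 1 higher and 2 lower, with 0 lower without cKO 1. The 2 markers of cerebellum and hindbrain (2.23 to 2.65 against 2.74 to 3.53 FPKM) were not called. Of the last, Zic1 was called higher by voom (adjusted p = 0.0258), without trend and robust moderation (0.0473), under quantile normalization (0.042), without WT 3 (0.0491) and without cKO 3 (0.0388). No measured marker was at 0 in all libraries. The lists named more symbols than were measured, with 6 for olfactory bulb, 10 for striatum and 9 for cerebellum and hindbrain. Symbols without a listed gene have no values here. The part of these shifts in the cerebellin results was not tested.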

How the data were processed

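RNA from neocortex of 3 WT and 3 cKO mice was sequenced from TruSeq libraries. The deposited table holds FPKM computed by the authors, per the file headers. The submitters' processing notes name bcl2fastq 1.8.4, STAR 2.5.4b, featureCounts 1.6.1, R 3.4.1, DESeq2 1.22.1 and the build mm10. The sources used here do not give the annotation release, the strand setting or any filter on genes. Titles give a separate code per sample but no litter, so p-values measure the spread between these samples.

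The table listed 15703 genes after 139 blank lines were left out. Gene models came from GENCODE M21 (mm10), by gene identifier. The design allowed for counts, but the values are FPKM, so genotype was tested with limma 3.58.1 (R 4.3.3; trend, robust) on log2(FPKM + 1), with Benjamini-Hochberg adjustment over all genes. Reads were recovered with GENCODE exon lengths and a library size at which 94.8% to 95.5% of low values came within 0.1 of a whole read. They served for depth and 1 alternative (voom). The fit was tested on simulated data. Tables were made with Python 3.11.15 and pandas 2.3.3.

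Genes outside the 8 are named by rule: called list members, up to 4 per list by p, else up to 2 by level; and the 3 nearest profiles of each called gene. Not every gene under this rule is reported here. Other list members (Lrrtm1, Fam19a2, Dlg1, Dcc, Nxph1, Nxph2, Clstn1, Clstn3, C1ql3 and Npy) were named after their values were seen, and most cell type markers are given as counts. The 8 genes and all lists were chosen with earlier results of these data known. Alternatives covered pseudocount, filter, scaling, moderation, recovered reads, a replicate block, each library left out and, added after seeing the data, the 4 libraries with Xist RNA and the interneuron sum without Npy.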

Additional observations from a re-analysis of the deposited data

How the results depend on the processing

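Over 15 alternatives, Cbln1, Cbln4 and Tcf4 stayed called lower, and Nrxn2, Nlgn1 and Nlgn2 kept their sign and stayed uncalled. With 1 library left out, the Cbln2 log2 change ran from −0.64 to −0.41, that of Nrxn3 from −0.29 to −0.22 and that of Nlgn3 from −0.0412 to 0.0106 (0.0078 without WT 1). In the same fits the number of the 8 genes called lower was 2 without cKO 2 and 3 otherwise. That of all genes called higher ran from 544 (without WT 1) to 1572 (without WT 2), and of those called lower from 830 (without WT 1 or cKO 1) to 1517 (without WT 2). Without cKO 2, 578 were higher and 839 lower, and without cKO 1, 566 were higher. With the 4 Xist libraries alone, 369 genes were higher and 624 lower, with Nrxn3 at −0.23 (not called) and Nlgn3 at 0.0312; leaving out samples lowers the power of the fit. Of genes outside the 8, signs turned for 3 uncalled ones with 1 library left out: Grid1 (−0.0234 to 0.21), Prox1 (−0.13 to 0.016) and Zbtb20 (−0.0734 to 0.16). Clstn1, also uncalled, turned to 0.0384 under quantile normalization. Of 1228 values for 82 such genes, 1120 kept sign and call, 95 lost and 9 gained a call.

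With the replicate number as a block, 1274 genes were called higher and 1541 lower, and 4 of the 8 genes lower. Same-numbered libraries did not deviate together (r of −0.0462, 0.0998 and −0.0476 across genes), so the numbers were not taken as pairs. Median-of-ratios factors were 1.003 in every library, so that scaling left the values as deposited. A comparison of protein sequences was planned and not run. Depth limits Cbln4 in cKO most, at 21 to 26 reads.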
